A study of Drosophila melanogaster with 4 samples.

Results

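The embryonic neuroblast temporal factors are the 7 genes hb, Kr, nub, pdm2, cas, grh and svp, matched by symbol among the 13945 protein-coding genes of the Ensembl annotation on the 6 main chromosome arms. Every peak whose summit lay in the body of a member or within 5 kb of it was taken, whatever its strength, so the rule used no measured value. The members themselves were chosen with earlier results of these data known. The peaks come from chromatin immunoprecipitation sequencing (ChIP-seq) of Drosophila melanogaster embryos, whole organisms collected at 6 to 24 h, of the strain chinmo-GFP. These flies express a chinmo-eGFP fusion protein. The description names an anti-GFP antibody for the precipitation, while the antibody field reads chinmo. There was 1 group of 4 biological replicates, all carrying the tag. Control libraries were not analysed here, and the sequences that drive the fusion are not described in the labels.

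In the embryonic nerve cord, neural stem cells called neuroblasts express a sequence of transcription factors while they divide, and the factor present at each division gives the daughter neurons their temporal identity. Hunchback (hb) comes first, then Kruppel (Kr), then the POU homeodomain pair nubbin (nub) and pdm2, then castor (cas) and last grainy head (grh). The gene svp encodes an orphan nuclear receptor that closes the Hunchback window. Chinmo is a BTB zinc finger protein known for a role in the temporal identity of neurons. A whole embryo also contains epidermis, gut, mesoderm and fat body, where several of these genes act too, so no peak below can be assigned to neuroblasts.

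Chinmo-eGFP regions shared by at least 3 of the 4 libraries were found at grh, nub and svp, and at none of hb, Kr, pdm2 and cas. A region was called shared where summits from at least 3 of the 4 thresholded lists joined when 100 bp were added to each side. The thresholded lists are the authors' peaks past an irreproducible discovery rate (IDR) threshold, and the ranked lists are longer sets that include weaker peaks. Of 2150 shared regions, 6 lay at the members: 3 at grh, 2 at nub and 1 at svp. Thus 3 of 7 members (42.9%) had a shared region, against 28.5% of all protein-coding genes. The windows of grh, nub and svp were the longest of the 7, at 51689, 50511 and 54049 bp. Among genes with windows from 0.8 to 1.2 times as long, a shared region was found at 45.8% of 336 genes for grh, 46.0% of 350 genes for nub and 46.1% of 321 genes for svp. The same share was 36.6% for hb, 30.2% for Kr, 46.6% for pdm2 and 26.9% for cas. The count at the members is therefore near the background, and is not a result about the temporal factors as a set. As to the number per gene, 3 or more shared regions, as at grh, were found at 9.52% of genes with a similar window, and 2 or more, as at nub, at 19.7%.

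All 6 regions lay upstream of the nearest annotated start, which was a start of the member itself, 5 of them within 1 kb and the third grh region 1053 bp away in an intron. The sequences around the centres of the 3 regions on arms 2L and 3R are shown for these binding calls at nub and svp. The strongest peak of pdm2, the neighbouring paralog of nub, is shown beside them. Each is 50 bp to each side of the centre on the gene's strand, 5′ to 3′, from the RefSeq Release 6 genome, the assembly dm6 names. At the internal nub region this window leaves out the summit of replicate 2, at 12618192, and a second, weaker summit of replicate 3. Capitals mark matches, on either strand, to any of 10 motifs: GAGAG (GAGA factor), ATGCAAAT (POU octamer), CATAAAA (Hunchback), AAAGGGTT (Kruppel), AACCGGTT (Grainyhead), AGGTCA (nuclear receptor element), TGANTCA (AP-1), TTCNNNGAA (Stat92E), TATCGATA (DRE) and CANNTG (E-box).
nub upstream start (chr2L:12587022-12587122, + strand): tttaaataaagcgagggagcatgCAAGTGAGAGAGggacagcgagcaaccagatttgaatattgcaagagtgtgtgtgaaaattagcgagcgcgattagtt
nub internal start (chr2L:12618074-12618174, + strand): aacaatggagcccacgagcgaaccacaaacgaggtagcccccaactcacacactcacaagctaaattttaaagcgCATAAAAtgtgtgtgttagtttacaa
svp internal start (chr3R:12280896-12280996, + strand): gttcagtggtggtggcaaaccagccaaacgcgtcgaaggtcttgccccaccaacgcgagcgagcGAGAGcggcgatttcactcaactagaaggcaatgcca
pdm2 upstream peak of replicate 4 (chr2L:12655809-12655909, + strand): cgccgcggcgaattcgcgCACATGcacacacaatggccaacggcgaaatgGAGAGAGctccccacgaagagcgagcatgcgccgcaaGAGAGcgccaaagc
The region at the nub upstream start held an E-box overlapping GAGA letters. The region at the nub internal start held 1 match to the Hunchback letters, which were present in 2.60% of all 2150 shared regions at the same window length of 101 bp. GAGAG was found in 3 of the 6 member regions, against 26.0% of all shared regions, and CANNTG in 3 of 6, against 41.8%. None of the 6 held the POU octamer, Kruppel, Grainyhead, nuclear receptor, AP-1, Stat92E or DRE letters, which were in 1.16%, 0.0465%, 0.186%, 1.91%, 2.19%, 1.44% and 8.51% of all shared regions. These are letter matches only, within 50 bp of each centre. At the grh region upstream of the grh-RK start, this window leaves out the summit of replicate 2, at 17814205. The GC content of the windows was 43.6% at both nub regions, 58.4% at svp, and 63.4%, 55.4% and 48.5% at the grh regions in the order of position, beside a median of 48.5% over all shared regions.

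Hunchback, a zinc finger factor, opens the cascade. The gene hb (FBgn0001180, chr3R:8690980-8697822, minus strand) had no thresholded peak in any library, and the nearest shared region lay 22777 bp from its body, at the promoter of CG8036. In the ranked lists hb had 6 peaks in replicate 3 and 0 in replicates 1, 2 and 4. The 6 peaks stood at signal percentiles of 4.83 to 62.8, where the percentile gives how much of the list is no stronger than the peak, and 100 is the strongest. The signal is the authors' own value for each peak. None of the 6 recurred in a second library. A ranked list is dense: a window with no ranked peak at all was found at 9.42%, 14.5% and 7.58% of genes in replicates 1, 2 and 4. A peak that is not listed is not a measured absence of binding, since the lists give no value for such sites and read depth is unknown.

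The nuclear receptor gene svp, whose product ends the Hunchback window, had its shared region at the internal promoter and not at its first start. The gene svp (FBgn0003651, chr3R:12258737-12302785, plus strand) starts at 3 annotated positions, 1 for svp-RC and the other two, 42 bp apart, for svp-RA and for svp-RB, svp-RE and svp-RF. The region (chr3R:12280729-12281183) was centred 164 bp upstream of svp-RA and 22.2 kb into the gene. Its percentile was 48.9, 71.2, 57.5 and 86.8 in the 4 thresholded lists, replicate 1 first, with a mean of 66.1 ± 16.6 (SD, n = 4). Replicate 4 was the highest and replicate 1 the lowest. The transcripts from the internal starts encode proteins of 543 to 826 residues, and svp-RC encodes 281.

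The first start of svp, which CG44037 shares, carried a weaker site. It passed the threshold in replicate 3 only, at a percentile of 10.3. In the ranked lists it was present in all 4 libraries, at 72.8, 69.7, 91.6 and 86.6. A further site 1872 bp upstream of the internal start was likewise in all 4 ranked lists, at 87.1, 86.1, 66.1 and 65.9, and passed the threshold in replicate 2 only. Replicates 3 and 4 were higher at the first start and replicates 1 and 2 at the intronic site.

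Kruppel, a zinc finger factor that follows Hunchback, had no thresholded peak in any library. The nearest shared region to Kr (FBgn0001325, chr2R:25226611-25231394, plus strand) was 111005 bp away, in an intron of CG30430. The ranked lists held 3, 5, 3 and 2 peaks at Kr in replicates 1 to 4, at 9 sites. A single site was present in all 4 libraries, 6765 bp downstream of the Kr start within an intron of CG9380, at percentiles of 56.4, 43.9, 47.0 and 11.3. The promoter peaks of Kr occurred in 1 library each, none above 48.7.

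By mean percentile nubbin had the strongest regions among the members, but this did not hold in every library. The gene nub (FBgn0085424, chr2L:12587625-12628135, plus strand) is read from an upstream start (nub-RB, 961 residues) and from a pair of internal starts 30.7 kb and 31.2 kb downstream (nub-RD and nub-RE, 601 residues each). Both promoters carried a shared region, in all 4 thresholded lists. The upstream region (chr2L:12586859-12587290) was centred 553 bp upstream of the nub-RB start, at percentiles of 67.1, 83.0, 96.4 and 89.0 in replicates 1 to 4, with mean 83.9 ± 12.4 (SD, n = 4). The internal region (chr2L:12617886-12618484) was centred 221 bp upstream of the nub-RD start and within an intron of Ref2, at 93.4, 96.4, 88.1 and 83.8, a mean of 90.4 ± 5.57 (SD, n = 4).

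The promoter with the higher peak was not the same in every library. The signal at the upstream start over that at the internal start was 0.653 in replicate 1 and 0.679 in replicate 2, and 1.54 in replicate 3 and 1.14 in replicate 4. The percentiles overlapped and the mean difference, upstream minus internal, was -6.53 ± 16.3 (SD, n = 4), with an exact two-sided sign-flip permutation p of 0.625. Each library's list also carries the signals of the 2 inputs that the authors compared, which the sources used here do not name. In every library both inputs placed the promoters in the same order as the library itself. The input ratios were 0.650 and 0.521 in replicate 1, 0.615 and 0.698 in replicate 2, 1.37 and 1.40 in replicate 3, and 1.26 and 1.17 in replicate 4. The inputs are parts of 1 library's result and not further replicates. Their summed signals had a median of 1.01 to 1.07 times the list's own signal over the ranked lists. Agreement in order with the library is therefore partly built in. Both regions were in the upper 5% of every ranked list, at 96.9 to 99.7 for the upstream start and 98.4 to 99.4 for the internal start.

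**Figure D1:**
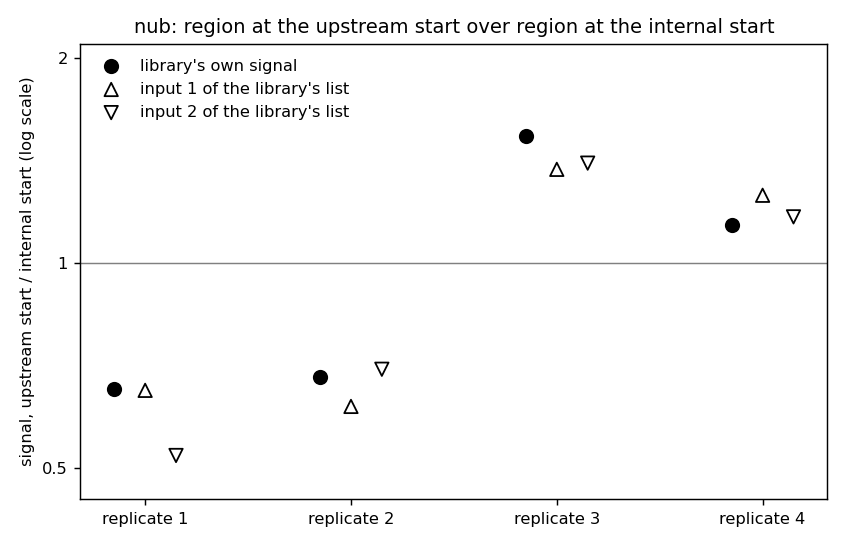
Signal of the peak at the upstream nub start divided by that at the internal nub start (y axis, log scale, no unit), for each replicate's own value (filled circles) and its list's 2 inputs (open triangles). All points of replicates 1 and 2 lie below 1 and all points of replicates 3 and 4 above 1, from 0.521 to 1.54.

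Beyond the promoters, nub held few sites that recurred. Of 18 ranked sites, 2 were in all 4 libraries, which are the promoters, and 2 were in 3 libraries. The first of those, 6011 bp downstream of the nub-RB start, stood at 52.7, 74.9 and 56.3 in replicates 2, 3 and 4. The second, 1476 bp beyond the nub-RE start, stood at 28.8, 13.9 and 56.1 in replicates 1, 3 and 4.

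The paralog pdm2 acts with nub in the same window and starts 29.0 kb downstream of its end. The gene pdm2 (FBgn0004394, chr2L:12657165-12686306, plus strand) had 1 thresholded peak, in replicate 4 only, 1306 bp upstream of its first start at a percentile of 15.8. Replicate 3 had a ranked peak at this site, and the percentiles in the ranked lists were 87.0 in replicate 3 and 91.0 in replicate 4. Replicates 1 and 2 had none. The internal start of pdm2 (pdm2-RA, 498 residues, against 893 for the upstream transcripts) had ranked peaks in replicates 2 and 3 only, at 59.2 and 71.5. None of the 10 ranked sites of pdm2 was present in more than 2 libraries, and the nearest shared region was 32818 bp away, at the promoter of MRP. The thresholded lists thus held both promoters of nub in 4 libraries and a peak upstream of pdm2 in 1.

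Castor, a zinc finger factor that follows the POU pair, had no thresholded peak. The nearest shared region to cas (FBgn0004878, chr3R:5712975-5716805, minus strand) was 40191 bp away, in an intron of Atg17. The ranked lists held 2, 1, 4 and 1 peaks at cas in replicates 1 to 4. One coding-exon site 1589 bp into the gene recurred in replicates 1, 2 and 4, at 35.5, 45.0 and 11.4. The highest ranked peak, at 78.6, lay 1220 bp upstream of the start and occurred in replicate 3 alone.

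Grainy head, the last factor of the cascade and a regulator of epidermal barrier genes too, had the most regions. The gene grh (FBgn0259211, chr2R:17801132-17842820, plus strand) has 5 annotated starts for 8 transcripts. The strongest region (chr2R:17813842-17814419) was centred 276 bp upstream of the grh-RK start, at percentiles of 88.9, 81.6, 77.3 and 80.0 in replicates 1 to 4, with mean 81.9 ± 4.96 (SD, n = 4). The libraries lay close together there. The region at the first start (chr2R:17800818-17801288) was centred 93 bp upstream of grh-RP and overlaps asRNA:CR45270, at 45.6, 59.4 and 49.3 in replicates 1, 2 and 4, a mean of 51.4 ± 7.17 (SD, n = 3). It missed the threshold in replicate 3, whose ranked list placed it at 90.4 with an IDR score of 291. The third region (chr2R:17822249-17822721) was centred 1053 bp upstream of the start of grh-RN and grh-RO, at 59.4, 81.1 and 39.1 in replicates 1, 2 and 3, a mean of 59.9 ± 21.0 (SD, n = 3). It overlaps an annotated roo element, and whether reads map uniquely there was not tested. The third region missed the threshold in replicate 4, at 88.8 in the ranked list with a score of 704. Both regions were thus listed by all 4 libraries once the threshold was set aside.

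**Figure D2:**
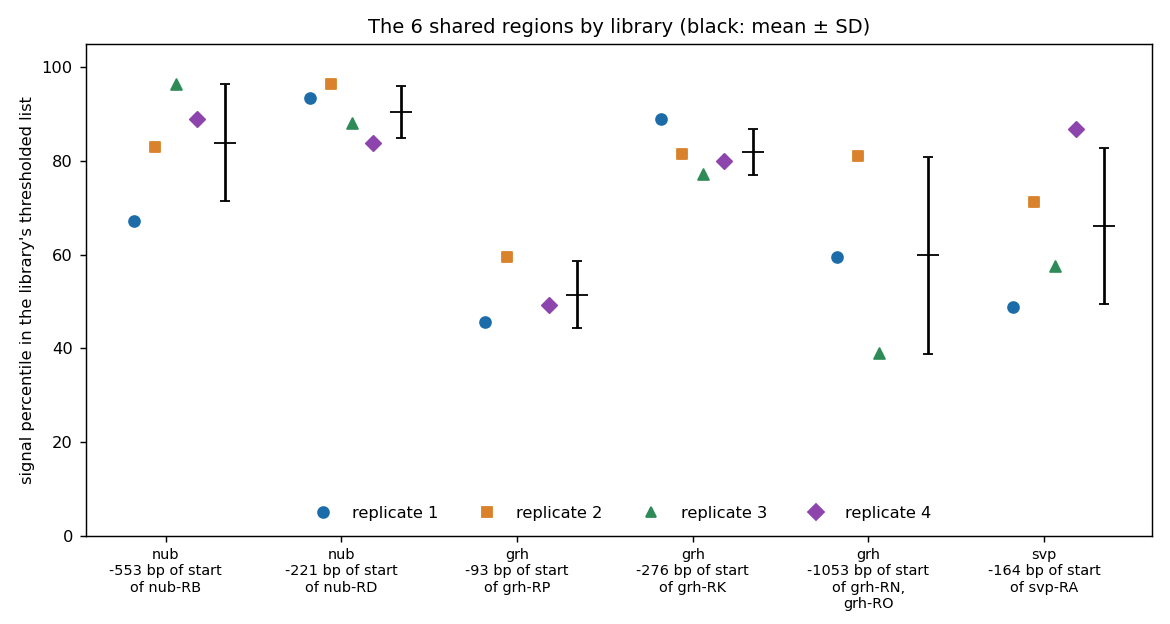
Signal percentile of each of the 6 shared regions in the thresholded list of each replicate (coloured symbols), with the mean and SD over the libraries that list it (black). The internal nub region and the grh-RK region had the smallest spread among regions listed in all 4 libraries, with SDs of 5.57 and 4.96, and 2 grh regions were each missing from 1 list.

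The deposited lists named 6 further thresholded clusters at grh, each in fewer than 3 libraries. One was in 2 libraries, 1277 bp beyond the start shared by grh-RH, grh-RI and grh-RL, at 12.5 in replicate 1 and 31.6 in replicate 2. The other 5 were in 1 library each. They lay 3374 bp into the neighbouring gene Dhit, 4418 bp and 2349 bp downstream of grh starts, 55 bp downstream of the start of grh-RN and grh-RO, and 5 bp upstream of the Orai start. The sites at 2349 bp and 55 bp overlap the same annotated roo element as the third shared region. The site in the Dhit intron and the 2 intronic grh sites were in all 4 ranked lists, with lowest percentiles of 22.0, 75.1 and 82.4. So were the site in 2 libraries, with a lowest percentile of 78.1, and the Orai site, with 70.1.

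In the ranked lists grh held the most peaks of the members, also per length. There were 32, 28, 25 and 24 peaks in replicates 1 to 4, or 6.19, 5.42, 4.84 and 4.64 per 10 kb, and between 68.3% and 88.9% of protein-coding genes had fewer per 10 kb. Each other member was below the middle of all genes in at least 3 of the 4 libraries. Ranked peaks per 10 kb averaged 5.27 ± 0.695 at grh, 1.85 ± 0.641 at svp, 1.58 ± 0.723 at nub, 0.958 ± 0.527 at pdm2, 2.20 ± 0.851 at Kr, 1.45 ± 1.02 at cas and 0.891 ± 1.78 at hb (SD, n = 4 each). The median over all genes was 3.76, 2.49, 2.72 and 3.47 in replicates 1 to 4. At grh 16 of 42 ranked sites (38.1%) were in 3 or 4 libraries, beside 28.6% of 63764 sites genome-wide. The same count was 4 of 18 at nub, 3 of 24 at svp, 1 of 9 at Kr, 1 of 5 at cas, and 0 of 6 at hb and 0 of 10 at pdm2. Thus nub and svp had high promoter peaks in windows with few ranked peaks per length beside all genes. At grh there were both high promoter peaks and many further ones. The window of grh also takes in part of Dhit and the starts of Orai and olf186-M. Some of its ranked sites lie there, among them 1 in all 4 libraries, 112 bp downstream of the olf186-M start. Its counts are thus those of the window and not of grh alone. The densities of the members were not compared with genes of similar window length, so an effect of length was not tested. No test of these differences was made.

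**Figure D3:**
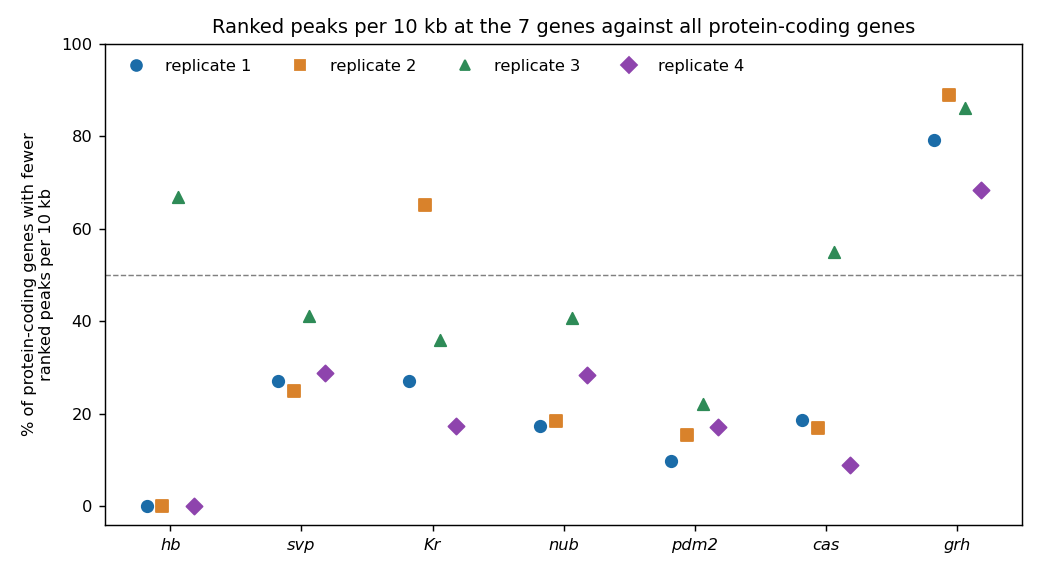
Share of all protein-coding genes with fewer ranked peaks per 10 kb of gene body and flanks than each member (y axis, percent), by replicate. All 4 points of grh lie between 68.3% and 88.9%, above the dashed line at 50%, and only replicate 3 at hb and cas and replicate 2 at Kr lie above it elsewhere.

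**Figure D4:**
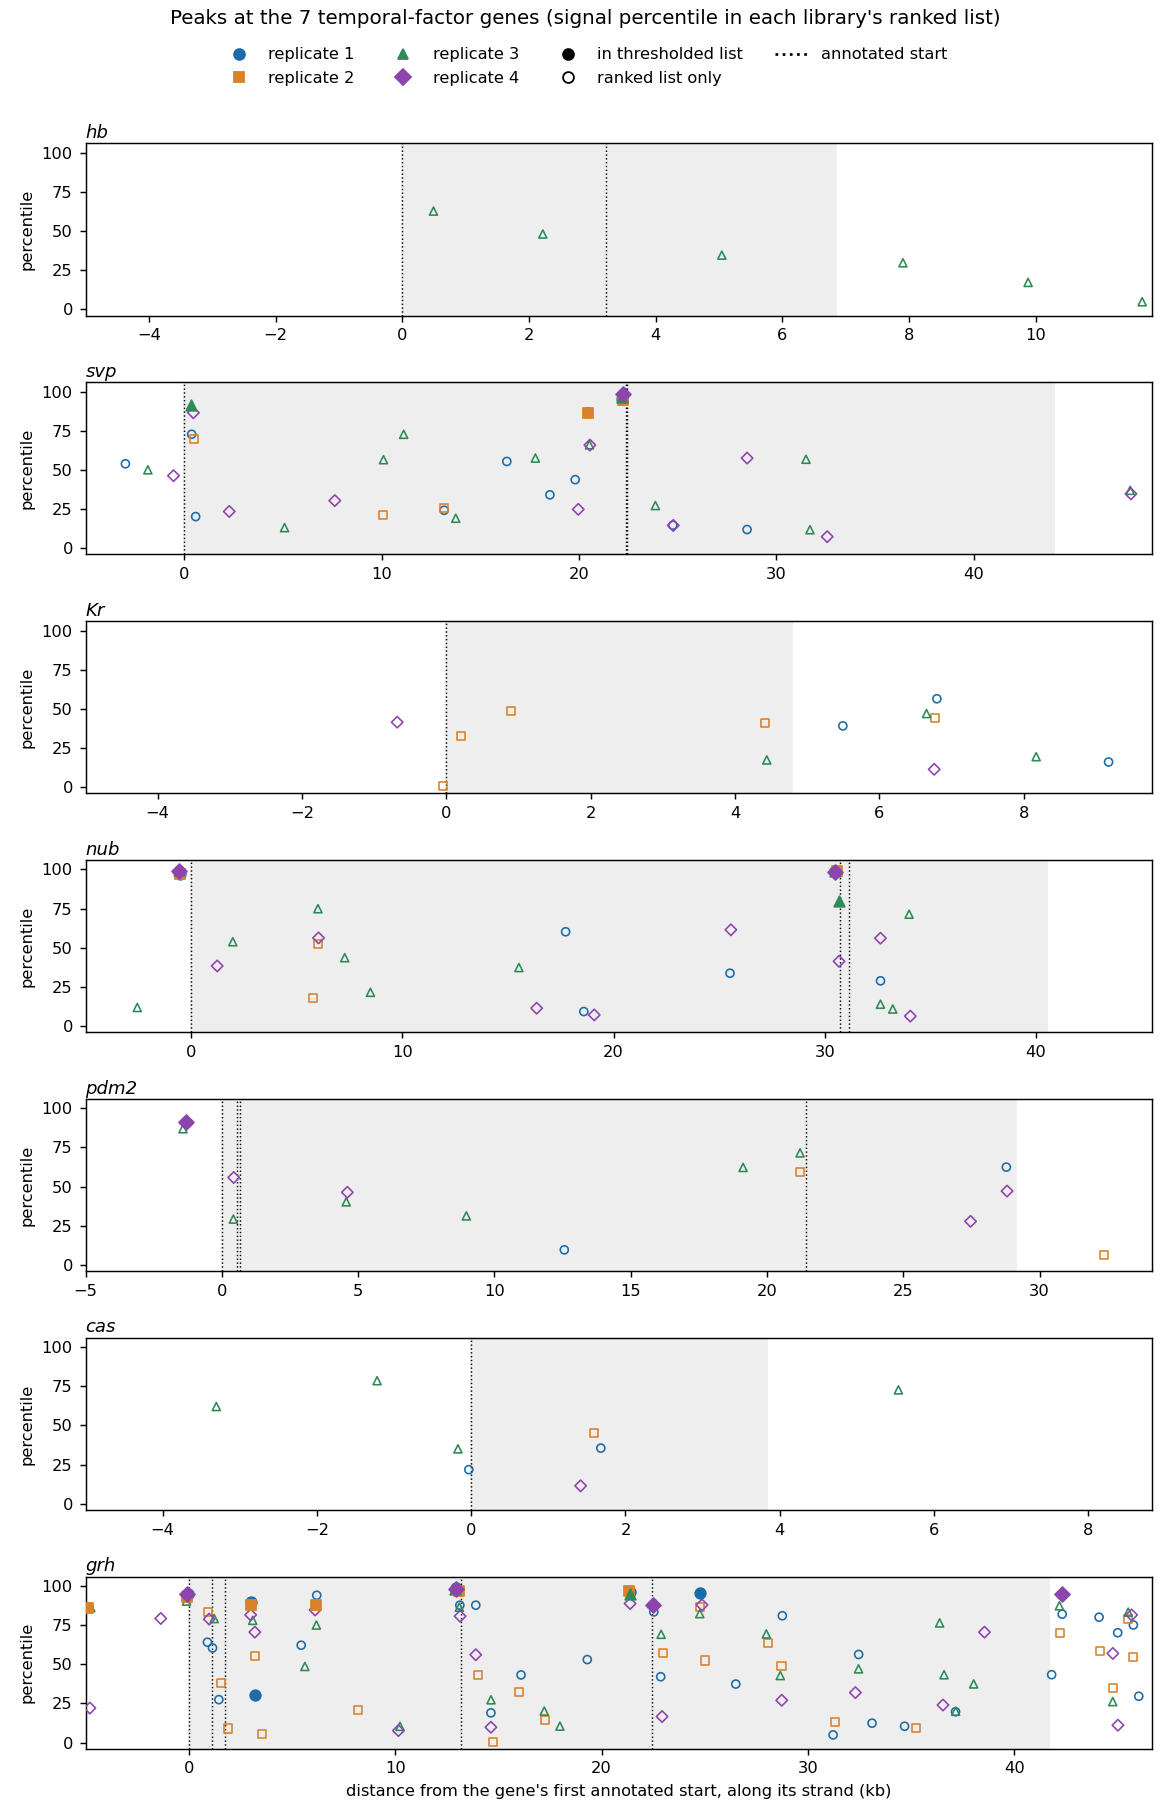
Ranked peaks of each replicate in the body of each gene (grey) and 5 kb around it, by distance from the first annotated start along the strand (x axis, kb) and signal percentile in the ranked list (y axis). Filled symbols passed the authors' threshold, and dotted lines are annotated starts. Filled symbols of all 4 replicates coincide at both nub promoters, at the internal svp start and at the grh-RK start.

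Starts of the members were compared with those of other genes by placing starts up to 1 kb apart in 1 start group. A shared region within 1 kb of a start was found at 12.7% of all protein-coding genes and at 3 of 7 members. No share was taken at genes of similar window length or with the same number of start groups, so these counts are a description only. Among the 1666 genes with 2 or more start groups, 31.5% had such a region, beside 3 of the 5 members with 2 or more groups (nub, grh and svp, but not hb or pdm2). Both start groups of nub were bound in this sense, and 2 of the 4 of grh. Of the 524 such genes in the genome with a bound start group, 21.9% had more than 1 bound. The case of svp, with an internal group bound and the first one not, held for 35.1% of them. By position, 5 of the 6 member regions were within 1 kb of a start, against 69.6% of all shared regions, and 6 of 6 lay upstream of the nearest start, against 60.4%.

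The order of the members by the mean percentile of their strongest shared region was nub, grh, svp. The regions and their order were picked from the same percentiles that are compared here. The pair of nub and svp was not tested. In replicate 4 the svp region, at 86.8, was above the nub region, at 83.8. The region at nub was above that at grh in 4 of 4 libraries, by 8.50 ± 5.20 percentile points (SD, n = 4), with an exact two-sided sign-flip permutation p of 0.125. The region at grh was above that at svp in 3 of 4 libraries, by 15.8 ± 19.5 points, with p = 0.25 by the same exact test. Both p-values were 0.25 after Benjamini-Hochberg adjustment over the 2 pairs. The smallest p that 4 libraries allow is 0.125, so no order could pass 0.05.

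The series also holds lists made across libraries. From the coordinates and signals of their inputs, 6 of these lists were matched to the 6 pairs of libraries, and the longest one matched none of the libraries. All 6 member regions were in the 6 pairwise lists and in the longest list. In that longest list the internal nub region ranked 208 and the upstream one 217 among 13848 peaks, the grh-RK region 645 and the svp region 956. Kr had 1 peak in it, at rank 10869, and pdm2 had 1, at rank 12110 and 121 bp upstream of its internal start. The pdm2 peak 1306 bp upstream of its first start, whose sequence is shown above, was in none of the 6 pairwise lists and not in the longest list. In the longest list, 5 of 7 members had a peak, against 73.4% of all protein-coding genes, and hb and cas had none. These lists carry the same reads as the libraries and are no further replicates.

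Genes related to the cascade gave mixed counts, to be read against 28.5% of all genes. No share at genes of similar window length was taken for these lists. Of 18 cofactors and outputs of the cascade, 9 had a shared region. For several of the 9, the best region was nearest to the start of another gene. The Polycomb group genes led, with Su(z)2 at a mean percentile of 97.2 ± 1.04 (SD, n = 4), Psc at 88.8 ± 2.70 (SD, n = 4), and ph-d and ph-p, which shared a region at 71.0 ± 32.6 (SD, n = 3). The LIM homeodomain gene ap and the cofactor gene dan had none. Of 15 genes of the optic lobe temporal series, 4 had one: hth at 93.5 ± 5.68 and SoxN at 65.2 ± 7.17 (SD, n = 4 each), and erm and ey, whose best regions were nearest to the starts of Der-1 and myo. The genes B-H1 and B-H2 had none. Of 7 other gap and maternal genes, knrl at 91.2 ± 4.78 and nos (annotated as nanos) at 69.0 ± 30.1 had one (SD, n = 4 each), the region of nos being nearest to the start of CG11779, and bcd and cad had none.

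Relatives of the members by family are likewise to be read against 28.5% of all genes. Several have long windows, up to 78791 bp at pdm3 and 76017 bp at Hr4, and no share at genes of similar length was taken for them. Of 3 other POU genes, vvl had a region at 64.7 ± 31.1 (SD, n = 3) and pdm3 at 60.5 ± 27.7 (SD, n = 4), and acj6 had none. The other Grainyhead family gene gem had regions, the strongest at 84.6 ± 7.98 (SD, n = 4), nearest to the start of CG46319. Of 6 other orphan nuclear receptors and partners, 5 had a region, led by Hr39 at 98.4 ± 1.08 and Hr38 at 79.3 ± 18.3 (SD, n = 4 each), dsf at 78.4 ± 13.8 and Hr4 at 31.2 ± 24.0 (SD, n = 3 each). The region of Hr39 was nearest to the start of l(2)k14505, in an intron 10199 bp from it, and that of dsf to the start of Gpdh1. Hr78 had none. The gene of the tagged protein, chinmo, had 11 shared regions of its own, with a highest mean percentile of 99.9.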

How the data were processed

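ChIP-seq peaks of 4 libraries of chinmo-eGFP embryos were used, with positions on dm6 per the labels. A thresholded and a ranked list per library were deposited. The signal of a peak, as deposited by the authors, has no stated unit and served only to describe and rank peaks within 1 list. The score is the authors' IDR score, and the lowest deposited score was 830 in all 4 thresholded lists. No source used here names the aligner, the peak caller or the read depth, so intervals that need depth were not computed. The thresholded lists held 3435, 4415, 2225 and 3038 peaks and the ranked lists 39725, 27034, 30166 and 34150 in replicates 1 to 4. The labels do not say whether biological replicates were separate cages, so p-values measure the spread between these libraries.

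Peaks on 6 chromosome arms were used, with summits as positions and 1-based coordinates. Gene models came from Ensembl release 115 (BDGP6.54), whose highest gene end and the peaks' highest end fit within the RefSeq Release 6 arms. Summits within 100 bp to each side were joined, and shared regions needed 3 of 4 libraries. Percentiles were computed over each list. Members were compared by an exact two-sided sign-flip permutation over libraries with Benjamini-Hochberg adjustment. Joining and counting were tested on simulated data. Tools were Python 3 with pandas and numpy.

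Genes named are the 7 members, the genes whose start is nearest to a region named or that contain it, up to 4 members of each related list with the highest mean percentile, up to 2 without a region in alphabetical order, and chinmo. CG8036, CG30430, MRP and Atg17 mark the nearest shared region. Members and lists were chosen with earlier results of these data known.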

Additional observations from a re-analysis of the deposited data

Results flagged for a closer look

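Values of 4 libraries were examined where 1 library lay far from the other three, by Dixon's criterion at 95%, for the peak counts of each member and the percentiles of the shared regions. Of 24 groups of 4 values, 3 had such a library. In each of the 3 the other three libraries had the same count, so any single differing count meets the criterion. The chance rate of about 1 in 20 groups, which holds for continuous values, does not apply to them. At hb, replicate 3 had 6 ranked peaks and the others 0. At nub, replicate 3 had 3 thresholded peaks and the others 2, the third being a second summit at the internal promoter. At pdm2, replicate 4 had 1 thresholded peak and the others 0.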

How the results depend on the processing

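No paired analysis was possible because the labels give 1 group, so no groups share replicate numbers. The sign-flip tests compare regions within each library. With 3 of 7 members bound and 6 shared regions as reported, the number of members stayed at 3 under the other windows, join distances, numbers of libraries, the upper 50% of each list, the conservative list and the 5 other pairwise lists (added after seeing the data). The share of all protein-coding genes did not stay the same. It was 28.5% as reported, 7.15% with the gene body only, 12.7% within 1 kb of starts and 46.9% with the conservative list. How 3 of 7 stands beside all genes therefore depends on the setting. The number of members was 5 with the longest list, through 1 weak peak each at Kr and pdm2, where the share of all genes was 73.4%. The number of regions was 13 in the conservative list, 21 in the longest list and 10 in the list of replicates 1 and 4, with grh holding 9, 14 and 7 of them. Leaving out each replicate in turn gave 3 members each time and 6 to 7 regions. The other settings gave 4 to 9 regions. The order nub, grh, svp kept its direction within the ranked lists and without each replicate. The rank by IDR score gave no order, since all 3 strongest regions were at 100. Without replicate 1 the difference between grh and svp was 7.77 points, and without replicate 4 it was 23.4. Ranked within the longer lists, the mean percentiles of the strongest regions were 99.0 for nub, 98.0 for grh and 96.3 for svp. Read depth is unknown, so no limit can be given for binding at the members with no listed peak.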
